A study of Mus musculus with 8 samples.

Results

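Granzymes C to G (Gzmc, Gzmd, Gzme, Gzmf and Gzmg) and the serpin Serpinb9b make up 6 of the 2000 genes in a pooled single-cell expression table of mouse liver tumours. The 6 genes were chosen by name from earlier measured values of the same cells, in which they marked a subset of the CD8 T cells, so their presence in CD8 T cells is a description and not a test. Its 53528 cells come from dissociated tumours that the mouse hepatoma line Hepa1-6 had formed, captured in droplets and sequenced from the 3′ ends of their RNA. The study asked how loss of Soat1, a cholesterol-esterifying enzyme of the tumour cells, alters tumour immune cells, alone and with blockade of the checkpoint receptor PD-1. Its 4 groups were WT tumours given PBS, WT tumours given a PD1 antibody, Soat1-edited tumours given PBS and Soat1-edited tumours given a PD1 antibody, all by intraperitoneal injection, and the edited tumours are called KO in the sample titles and knockdown in the genotype field. All 4 groups share the Hepa1-6 line, each with a cDNA and an oligo entry, and the labels used here give no mouse strain, age or number of animals.

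The last number of each cell name, 1 to 6, gives 6 sets, which hold 7569 to 11813 cells each. No source ties these sets to the 4 groups, so no effect of Soat1 or of the antibody was measured, the sets are unassigned samples, and no p-value is given. UMI counts (unique molecular identifiers, a tag for each captured RNA molecule) could be recovered in set 1, at a median of 11098.5 UMIs per cell. Sets 2 to 6 carry values below 0 in every cell and are used on the deposited natural log scale, which a step recorded nowhere has changed, so their differences are differences of these values rather than of expression.

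Granzymes are serine proteases that cytotoxic lymphocytes store in granules and release, with the pore-forming protein perforin, onto target cells. Granzymes A and B are the widely shared members, while granzymes C to G are rodent genes that lie in a cluster with granzyme B and are known from strongly stimulated cytotoxic T cells and NK cells. Serpinb9b belongs to the mouse family of intracellular serpins related to Serpinb9, the inhibitor with which killer cells protect themselves from their own granzyme B.

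The 5 granzyme genes lie within 117 kb of chromosome 14, all on the minus strand (GENCODE M21, build GRCm38). Gzme spans chr14:56117626-56120625, Gzmd chr14:56129556-56132608, Gzmg chr14:56156582-56159579, Gzmf chr14:56205263-56211417 and Gzmc chr14:56231441-56234656, with Gzmb beyond Gzmc at chr14:56258838-56262260. Serpinb9b lies on the plus strand at chr13:33027416-33041884. These coordinates describe the genes in the reference; the submitters' notes name both GRCh38 and mm10, and the build used for alignment of these reads is not settled by them.

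The promoters of the granzymes are shown because the 5 genes were found in overlapping sets of CD8 T cells and their upstream sequences are near copies of one another. Each line gives the 200 bases before the transcript start, 5′ to 3′ on the gene's strand, from RefSeq promoter windows on GRCm38.p6, in which all 6 genes were matched. Capitals mark TGTGGT on either strand, the core recognised by Runx factors, and in Serpinb9b TCACAC, a core recognised by T-box factors.
Gzmc: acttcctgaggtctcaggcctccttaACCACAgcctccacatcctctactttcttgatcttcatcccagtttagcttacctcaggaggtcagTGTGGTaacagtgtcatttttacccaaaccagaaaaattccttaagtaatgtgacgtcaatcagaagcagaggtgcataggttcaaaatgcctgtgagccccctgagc
Gzmd: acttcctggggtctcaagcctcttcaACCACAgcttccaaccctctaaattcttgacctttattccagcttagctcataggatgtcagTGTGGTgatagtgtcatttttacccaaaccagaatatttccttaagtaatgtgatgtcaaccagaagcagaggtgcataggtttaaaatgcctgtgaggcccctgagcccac
Gzme: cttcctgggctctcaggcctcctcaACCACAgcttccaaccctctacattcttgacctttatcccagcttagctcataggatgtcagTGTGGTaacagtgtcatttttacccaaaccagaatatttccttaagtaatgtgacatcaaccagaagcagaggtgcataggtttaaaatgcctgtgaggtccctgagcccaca
Gzmf: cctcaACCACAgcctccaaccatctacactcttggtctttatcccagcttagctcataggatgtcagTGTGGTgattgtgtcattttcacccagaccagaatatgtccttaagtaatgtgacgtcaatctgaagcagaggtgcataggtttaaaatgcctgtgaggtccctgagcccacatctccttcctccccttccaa
Gzmg: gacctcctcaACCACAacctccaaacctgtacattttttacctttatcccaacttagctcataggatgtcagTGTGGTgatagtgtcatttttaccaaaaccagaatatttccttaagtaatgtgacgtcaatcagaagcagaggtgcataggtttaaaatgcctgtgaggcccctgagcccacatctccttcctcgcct
Serpinb9b: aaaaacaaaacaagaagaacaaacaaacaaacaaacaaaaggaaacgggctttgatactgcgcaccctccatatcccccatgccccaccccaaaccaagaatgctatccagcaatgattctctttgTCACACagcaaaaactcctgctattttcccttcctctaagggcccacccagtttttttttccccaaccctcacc
Their positions are chr14:56234658-56234857 for Gzmc, chr14:56132594-56132793 for Gzmd, chr14:56120626-56120825 for Gzme, chr14:56211408-56211607 for Gzmf, chr14:56159580-56159779 for Gzmg and chr13:33027214-33027413 for Serpinb9b.

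Every one of the 5 granzyme promoters held TGTGGT once on each strand. The minus-strand match began 174, 174, 175, 195 and 190 bases before the start in Gzmc, Gzmd, Gzme, Gzmf and Gzmg, and the plus-strand match followed 66 bases later in Gzmc and 62 bases later in the other 4. Of all 32851 RefSeq promoter windows, which run from 250 bases before to 50 bases after the start, 16.8% held TGTGGT on either strand and 0.767% held it on both. The 5 windows were 86.1% to 94.0% identical over their aligned bases, so these are not 5 independent matches. Among other granule genes, Gzmb had 2 matches, both on the plus strand, Gzma and Prf1 had 1 each, Gzmk had 0, Gzmm had 0 and 1 in its 2 windows, and Gzmn, which lies between Gzmg and Gzmf, had 0. Serpinb9b had no TGTGGT in its window and had TCACAC on the plus strand 74 bases before the start, a string present in 14.5% of windows on either strand. The AP-1 string (TGA and TCA with any 1 base between), the STAT string (TTC and GAA with any 3 bases between), ACAGGAAG for Ets factors and TATAAA, searched on both strands, were in none of the 6 windows, against 7.81%, 8.30%, 3.58% and 13.6% of all windows. A string match describes the sequence and does not show binding. Only these exact strings were searched, so their absence says nothing about variants of the same sites.

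Near-identity also reaches the transcripts, which bears on how reads were counted. Over the 10 pairs of the 5 granzymes, transcript identity ranged from 76.1% (Gzmc with Gzmg) to 94.8% (Gzmd with Gzme). No exact 100-base window from the last 400 bases of any of the 5 transcripts occurred in another, and 100 bases is the length of the read that covers the gene. How reads matching several copies were counted is not given in the sources used here, so the split between Gzmd, Gzme, Gzmf and Gzmg carries that uncertainty, while Gzmc stands further from the others, at 76.1% to 77.1% identity.

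Cells were assigned to classes by marker genes, none of them a member. In all sets together 10796 cells were gated as CD8 T, 771 as CD4 T, 338 as regulatory T, 380 as NK, 2979 as myeloid and 20843 as hepatoma cells, and 17421 cells (32.5%) fell in no gate. The gates carried their defining markers in set 1. Cd8a was at 816 CPM (UMIs of the gene for each 1000000 UMIs of the gate) in CD8 T cells and 3.64 CPM in hepatoma cells, Foxp3 was at 332 CPM in regulatory T cells, and Ncr1 was at 307 CPM in NK cells and 0.575 CPM in CD8 T cells. Tumour RNA was present in every immune gate, with Afp at 424 to 672 CPM against 5063 CPM in hepatoma cells.

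CD8 T cells of set 1 carried all 6 genes. Among 1048 CD8 T cells, after 68 called doublets of any class were left out, Gzmc was at 137 CPM (exact 95% Poisson interval 128 to 146), from 952 UMIs. Gzmf followed at 76.6 CPM (70.2 to 83.4), Gzmd at 56.9 CPM (51.4 to 62.8), Gzme at 48.0 CPM (43.0 to 53.4) and Gzmg at 29.9 CPM (26.0 to 34.2). UMIs from 3′ ends count molecules, so these levels do not scale with transcript length. The intervals of Gzmd and Gzme overlapped, and those of the other neighbours in this order did not. Serpinb9b, from 692 UMIs, was at 99.4 CPM (92.2 to 107), between Gzmc and Gzmf. These intervals cover counting error only. For scale, Gzmb was at 1239 CPM, Prf1, which encodes perforin, at 881 CPM and Gzma at 200 CPM in the same cells.

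Few CD8 T cells held these molecules. Gzmc was detected in 99 cells (9.45%), Gzmf in 55, Gzme in 36, Gzmd in 28 and Gzmg in 11, and any of the 5 in 140 cells (13.4%, exact Clopper-Pearson interval 11.4% to 15.6%). Serpinb9b was detected in 169 cells (16.1%). Gzmb, in contrast, was detected in 671 cells (64.0%). The median depth was 5050 UMIs in CD8 T cells and 21623 in hepatoma cells, so shares were also taken after every cell was thinned to 1000 UMIs. Any of the 5 granzymes was then found in 5.25% of CD8 T cells (3.98% to 6.78%), in 0.818% of myeloid cells and in 0.309% of hepatoma cells. Serpinb9b was then found in 5.44% of CD8 T cells, in 0.0618% of hepatoma cells and in 0 of 489 myeloid cells. For that 0 the exact Clopper-Pearson interval reaches 0.752%.

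By CPM in set 1, CD4 T cells carried Gzmc at a level near that of CD8 T cells and less of the other 5 genes. Few cells lay behind these values, and Gzmd was detected in a larger share of CD4 T cells (4.92%) than of CD8 T cells (2.67%). In 61 cells of set 1 Gzmc had 36 UMIs in 6 cells (106 CPM, 74.3 to 147), and the ratio of CD8 T to CD4 T cells was 1.29 (0.924 to 1.85), an interval that includes 1. Gzmd and Gzme had 7 UMIs each (20.6 CPM), with CD8 T cells 2.76-fold (1.33 to 6.90) and 2.33-fold (1.12 to 5.83) higher. These ratios rest on single cells: without the CD4 T cell with most UMIs of the gene they were 6.24 (2.12 to 30.4) and 15.8 (2.82 to 626), and without the highest CD8 T cell they were 2.07 and 1.76 with intervals that include 1 (0.994 to 5.20 and 0.841 to 4.42). Gzmf and Gzmg had 0 UMIs. Against a floor of 3 UMIs in the gate (8.84 CPM) CD8 T cells were 8.66-fold and 3.38-fold higher. The highest CD8 T cell held 53.4% of the Gzmg UMIs, and without it the value for Gzmg was 1.58-fold. The floor covers counting error only, and 61 cells can miss a gene found in 1.05% of CD8 T cells, as Gzmg was, so these are not lower bounds. Gzmg was above 0.5 in a larger share of CD8 T than CD4 T cells in 5 of 6 sets, but in set 4 the shares were 1.28% and 1.83%. Serpinb9b had 13 UMIs in 5 cells (38.3 CPM), and CD8 T cells were 2.59-fold (1.51 to 4.90) higher. Without the highest CD4 T cell the ratio was 4.19 (2.11 to 9.74) for Serpinb9b and 1.87 (1.25 to 2.94) for Gzmc, the latter an interval that no longer includes 1. Leaving out single cells was tried after seeing the data.

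Regulatory T cells of set 1 carried almost none of the 6 while carrying granzyme B. Across 39 cells of set 1, Gzmc had 2 UMIs and the other 5 genes had 0, where the floor of 3 UMIs is 12.5 CPM each, for counting error alone. Against that floor Serpinb9b was 7.98-fold higher in CD8 T cells, a value that does not cover the spread between cells. Gzmb was at 1781 CPM in these regulatory T cells, with a UMI in 27 of the 39, although 72.5% of its UMIs lay in 1 cell and it was at 531 CPM without that cell. Serpinb9b was above 0.5 in 0% to 2.27% of regulatory T cells over the 6 sets, against 12.6% to 20.0% of CD8 T cells. Gzmc was above 0.5 in 1.85% to 7.55% of them, 15 of 338 cells over all sets (4.44%), and in set 5 its share of 7.55%, from 4 of 53 cells, lay above the 6.60% of CD8 T cells. The other 4 granzymes were above 0.5 in 1 to 4 of the 338 cells each.

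The NK gate of set 1 held few cells. Only Gzmc was detected in the 34 NK cells, with 231 UMIs in 4 cells. Gzmd, Gzme, Gzmf and Gzmg had 0 UMIs, where the floor of 3 UMIs is 27.1 CPM each, for counting error alone. These 4 genes were detected in only 1.05% to 5.25% of CD8 T cells, so 34 cells can miss them. Their 0 counts therefore set no upper limit and do not show that the gates differed. Gzmc reached 2086 CPM (1826 to 2373), and CD8 T cells had 0.0656 of that level (0.0567 to 0.0760), but 180 of the 231 UMIs came from 1 NK cell and without it the NK level was 488 CPM. Serpinb9b had 14 UMIs in 6 NK cells (126 CPM, 69.1 to 212), and the ratio of CD8 T to NK cells was 0.786 (0.466 to 1.45), an interval that includes 1. Of those 14 UMIs 9 lay in 1 cell. In the cells of each gate with less tumour RNA the direction turned, at 69.1 CPM in 524 CD8 T cells and 21.4 CPM, from 1 UMI, in 17 NK cells, a ratio of 3.23 (0.573 to 128).

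Hepatoma and myeloid cells held single UMIs. Both gates left out cells with a T cell or CD8 marker, and the hepatoma gate those with an NK marker. Their levels, and their shares after thinning, thus describe cells selected for little lymphocyte RNA. The 5 granzymes summed to 3.17 CPM (2.87 to 3.50) in 4857 hepatoma cells, with at most 3 UMIs of the 5 together in a cell, and to 6.38 CPM (3.18 to 11.4) in 489 myeloid cells, with at most 1. In hepatoma cells the 411 granzyme UMIs were 38.2% Gzmc, 17.8% Gzmd, 9.25% Gzme, 21.4% Gzmf and 13.4% Gzmg. Over all cells of set 1 the same shares were 40.2%, 16.7%, 9.62%, 20.3% and 13.2%, each within the exact binomial interval of the hepatoma value. However, 1 cell in no gate held 2233 of the 5635 UMIs behind these shares, which depend on it and were not taken without it. The CD8 T share of Gzme was 13.8% (12.4% to 15.2%), an interval that meets the hepatoma one (6.63% to 12.5%). The CD8 T share of Gzmg was smaller (8.58%, 7.50% to 9.77%), below the hepatoma interval (10.2% to 17.1%). In CD8 T cells 6 of 6 members were at least 10-fold higher than in hepatoma cells on the log2(CPM + 1) scale, beside 11.5% of the 1816 genes compared, and since the members were chosen for this pattern nothing is read from that count.

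**Figure D1:**
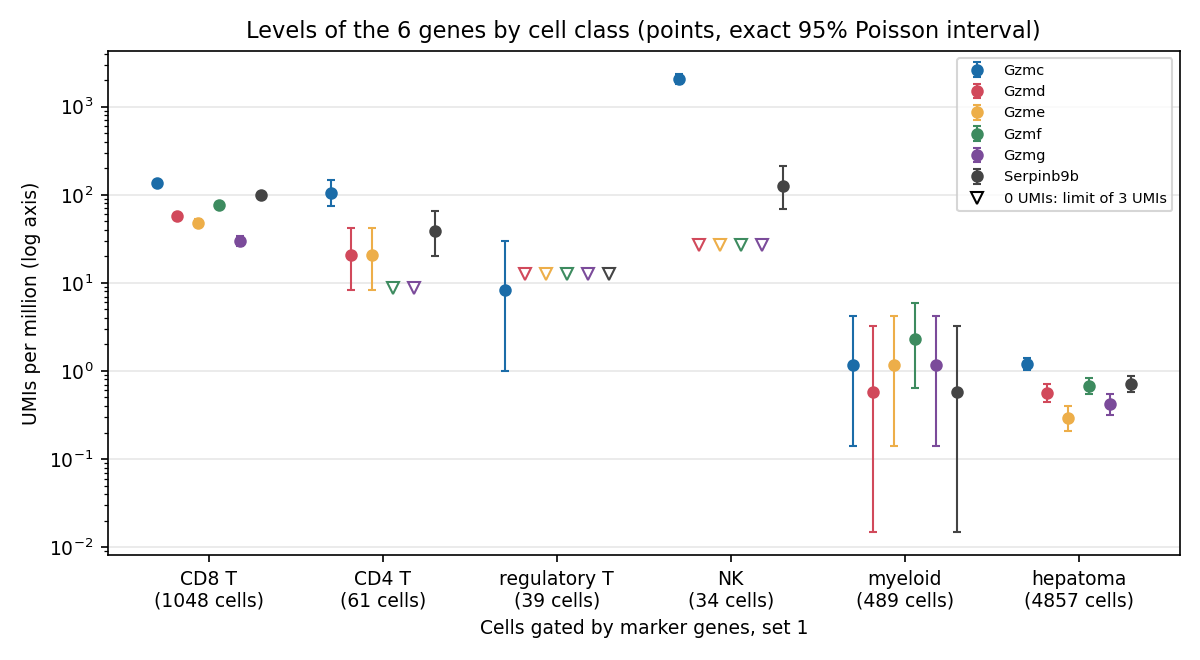
Level of each gene, in CPM on a log axis, in the 6 classes of set 1, with points for the level, bars for the exact 95% Poisson interval and open triangles for the limit of 3 UMIs where none was counted. CD8 T cells show all 6 genes between 29.9 and 137, NK cells show Gzmc at 2086 and Serpinb9b at 126 alone, and regulatory T cells show Gzmc alone, from 2 UMIs.

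A handful of cells supplied most granzyme molecules. Among the 1048 CD8 T cells, 4 cells held at least 50% of the 2423 Gzmc to Gzmg UMIs, and the 10 highest held 67.7%. By gene, the 10 highest cells held 99.5% of the Gzmg UMIs, 90.2% of Gzmd, 83.8% of Gzme, 75.6% of Gzmf and 62.8% of Gzmc. Serpinb9b was spread more widely, with 25.7% in its 10 highest cells, close to the 27.7% of Gzmb and above the 5.19% of Cd8a. Across the 543 genes ranked by this share, the median was 11.0%, and the 5 granzymes took ranks 2 and 5 to 8, interleaved with the immunoglobulin genes Jchain, Igkc and Ighm at ranks 1, 3 and 4. The 3 plasma cell markers (Jchain, Mzb1 and Ighm) summed to 332 CPM in the CD8 T gate. These summed to 12.3 CPM in the CD8 T cells with at least 2 granzyme UMIs and to 432 CPM in those with none.

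Leading CD8 T cells expressed the granzymes in different mixtures. The highest held 562 granzyme UMIs, 3.63% of its 15502, made of 165 Gzmc, 80 Gzmd, 82 Gzme, 124 Gzmf and 111 Gzmg, with 0 Serpinb9b. The next held 241, of which 99 were Gzmd, 72 Gzmg, 54 Gzme, 16 Gzmc and 0 Gzmf, with 11 Serpinb9b. A further cell held 54 granzyme UMIs, all of them Gzmc, with 12 Serpinb9b. All 8 CD8 T cells among the 10 highest cells of set 1 had at least 5 of 7 T cell and CD8 markers present and none was a called doublet.

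**Figure D2:**
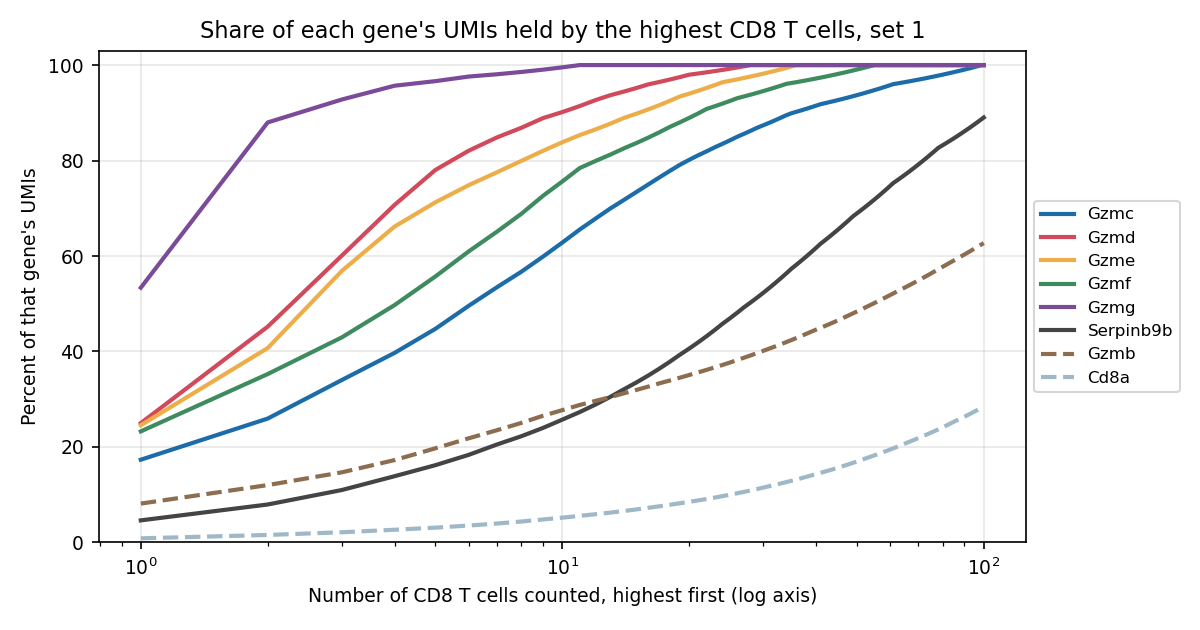
Cumulative percent of each gene's UMIs (vertical axis) held by the CD8 T cells of set 1 counted from the highest down (horizontal log axis), with solid lines for the 6 genes and dashed lines for Gzmb and Cd8a. At 10 cells Gzmg stands at 99.5%, Gzmc at 62.8%, Serpinb9b at 25.7% and Cd8a at 5.19%.

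The single cell with most granzyme RNA fell in no gate. It held 2233 of the 5635 granzyme UMIs of set 1 (39.6%), and these were 17.1% of its own 13086 UMIs, as 735 Gzmc, 444 Gzmd, 135 Gzme, 450 Gzmf and 469 Gzmg. It had 16 UMIs of Klra4, 12 of Klra8, 8 of Eomes, 7 of Klre1 and 4 of Klrb1c, all on the NK list, and 0 of Cd8a, Cd8b1, Cd3d, Cd3g, Trbc1 and Trbc2. A single Trac UMI kept it out of the NK gate. It also held 125 Prf1, 98 Gzmb, 18 Gzma and 426 Spp1 UMIs, and 1 of Serpinb9b. An NK gate that allows Trac, tried after this cell was seen, held 35 cells of set 1 with Gzmc at 7801 CPM, Gzmd at 3586, Gzme at 1090, Gzmf at 3634 and Gzmg at 3788, so the absence of Gzmd to Gzmg from NK cells of set 1 rests on that 1 UMI. Serpinb9b was at 121 CPM in that gate. Over all sets the wider gate added 9 cells to the 380, of which 2 had any of the 5 granzymes above 0.5.

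Over the 6 sets the share of CD8 T cells with a deposited value above 0.5 was computed for each gene. Gzmc was above it in 8.38%, 6.53%, 7.45%, 9.99%, 6.60% and 13.7% of CD8 T cells of sets 1 to 6. Gzmd was above it in 2.48%, 5.39%, 4.51%, 5.75%, 3.23% and 12.5%, and Gzme in 3.24%, 5.18%, 5.93%, 5.18%, 2.80% and 13.2%. Set 6 was highest for both, and the other 5 sets lay below 6% for Gzmd and Gzme. Gzmf was above it in 4.48%, 9.37%, 7.50%, 9.94%, 4.88% and 12.1%. Gzmg was rare in every set, at 0.762%, 0.639%, 0.736%, 1.28%, 0.646% and 1.93%. Serpinb9b was steadier, at 15.3%, 15.5%, 14.0%, 12.6%, 13.1% and 20.0%.

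By the share above 0.5, and by the mean value, set 6 was thus highest for all 6 genes in CD8 T cells. By the share above 2, set 2 was highest for Serpinb9b (5.75%, set 6 4.82%) and set 4 for Gzmg (0.476%, set 6 0.428%). By that share Gzme stayed highest in set 6, at 2.25% beside 1.81% in sets 3 and 4. Gzmb was above 0.5 in 66.4% of set 6 CD8 T cells and was highest in set 4, at 69.4%. Any of the 5 granzymes was above 0.5 in 26.9% of set 6 CD8 T cells and in 10.9% to 18.1% of those of the other sets. Set 6 also had the highest share of hepatoma cells above 0.5 for Gzmd (0.689%) and Gzme (0.640%). By the mean value in hepatoma cells, set 6 was highest for Gzme (0.00543), but set 2 was for Gzmd (0.00561, set 6 0.00416). Which group or animals set 6 came from is not recorded, and the part that free RNA or the unrecorded step played was not tested.

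**Figure D3:**
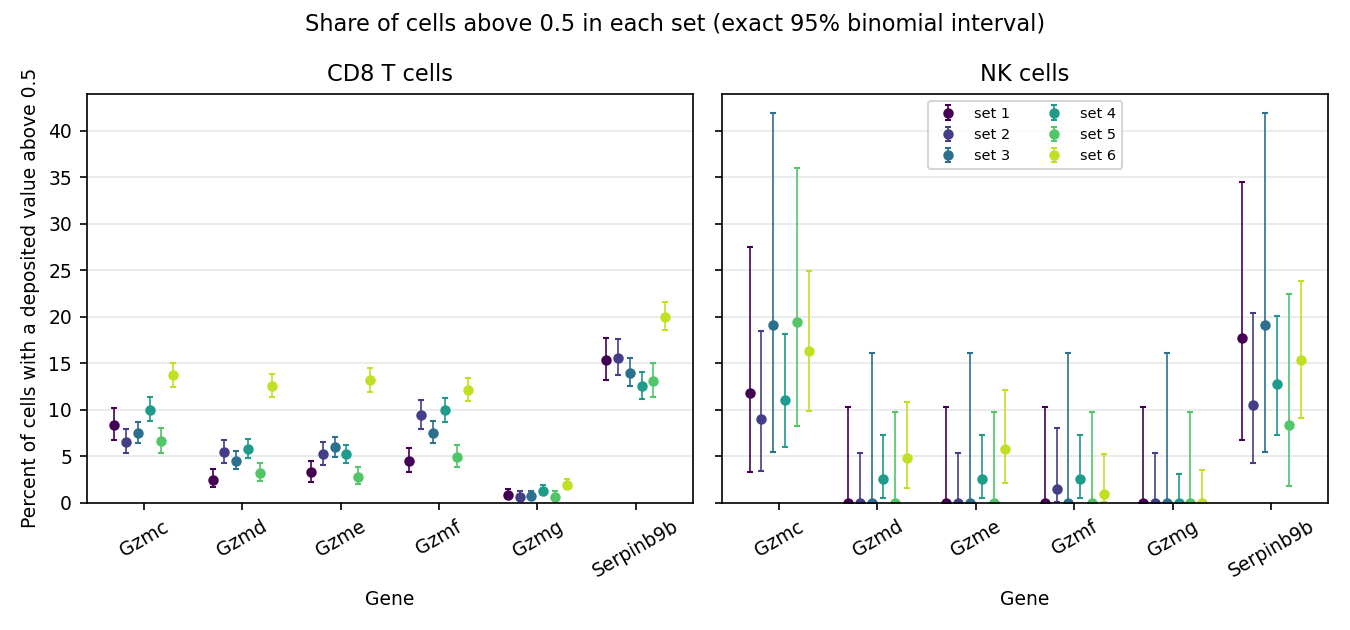
Percent of CD8 T cells (left) and NK cells (right) with a deposited value above 0.5 for each of the 6 genes, with 1 point per set and bars for the exact 95% binomial interval of counting error. Set 6 is the highest in CD8 T cells for each gene, from 1.93% for Gzmg to 20.0% for Serpinb9b, and Gzmg is at 0 in NK cells of every set.

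In the NK cells of all sets, Gzmc was the member of the 5 found most often. Gzmc was above 0.5 in 11.8%, 8.96%, 19.0%, 11.0%, 19.4% and 16.3% of NK cells of sets 1 to 6, above the share of CD8 T cells in all 6 sets, with differences of 1.03 to 12.8 percentage points. NK cells numbered 21 to 118 a set. By the mean deposited value Gzmc was higher in NK than in CD8 T cells except in 1 of 6 sets, set 2 (0.0987 in NK and 0.149 in CD8 T cells). Gzmd was above 0.5 in 8, Gzme in 9, Gzmf in 5 and Gzmg in 0 of all 380 NK cells. Serpinb9b was above 0.5 in 8.33% to 19.0% of NK cells, higher than in CD8 T cells in 3 sets and lower in 3. In CD4 T cells the shares over all sets were 7.26% for Gzmc, 4.02% for Gzmd, 2.72% for Gzme, 2.20% for Gzmf, 0.649% for Gzmg and 10.5% for Serpinb9b. Serpinb9b was lower in CD4 T than in CD8 T cells in all 6 sets, by 2.68 to 8.31 percentage points, and Gzmc by 0.184 to 2.92. By the mean deposited value Gzmc was higher in CD8 T than in CD4 T cells in only 2 of 6 sets, so its order depends on the measure. For Gzmd, CD8 T cells were higher than CD4 T cells in 3 of 6 sets by the mean and in 4 of 6 by the share above 0.5.

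Most CD8 T cells positive for granzymes C to G showed a single gene, and a minority showed several. Of the 1930 CD8 T cells with any of the 5 above 0.5, 1092 (56.6%) had 1, 378 had 2, 213 had 3, 177 had 4 and 70 (3.63%) had all 5. The share with at least 2 ran from 30.7% in set 1 to 49.8% in set 6. Gzmg was seldom alone, since 85.2% of its 122 positive cells were also positive for Gzmd, 79.5% for Gzme and 75.4% for Gzmc. Gzmc had the most positive cells, 1018, of which 34.5% were positive for Gzmd and 42.6% for Gzmf. Such shares depend on how common each gene is and do not rank the genes by independence. Detection of several genes needs depth: in set 1 the median UMI total was 4572 in CD8 T cells with none of the 5, 7625 in those with 1 and 15502 in the 5 cells with all 5.

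Gzmd and Gzme were the closest pair. Their Pearson correlation over CD8 T cells had a median of 0.72 over the 6 sets (0.66 to 0.78), the next were Gzmd with Gzmg at 0.55 (0.44 to 0.66) and Gzme with Gzmg at 0.47 (0.38 to 0.58), and Gzmf with Gzmg was lowest at 0.38 (0.34 to 0.42). Gzmd and Gzme are also the pair with the highest transcript identity, 94.8%, and what part reads shared between the copies play in this correlation was not tested. Gzmc, with 76.8% identity to Gzmd, had a median of 0.46 (0.42 to 0.51) with it. The median over the 10 pairs was 0.53, 0.46, 0.44, 0.47, 0.45 and 0.44 in sets 1 to 6. After thinning to 1000 UMIs it was 0.42 in set 1, and it was 0.22 without the 5 highest cells, so in set 1 it leaned on those cells. These correlations are over cells of the same library and carry no p.

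**Figure D4:**
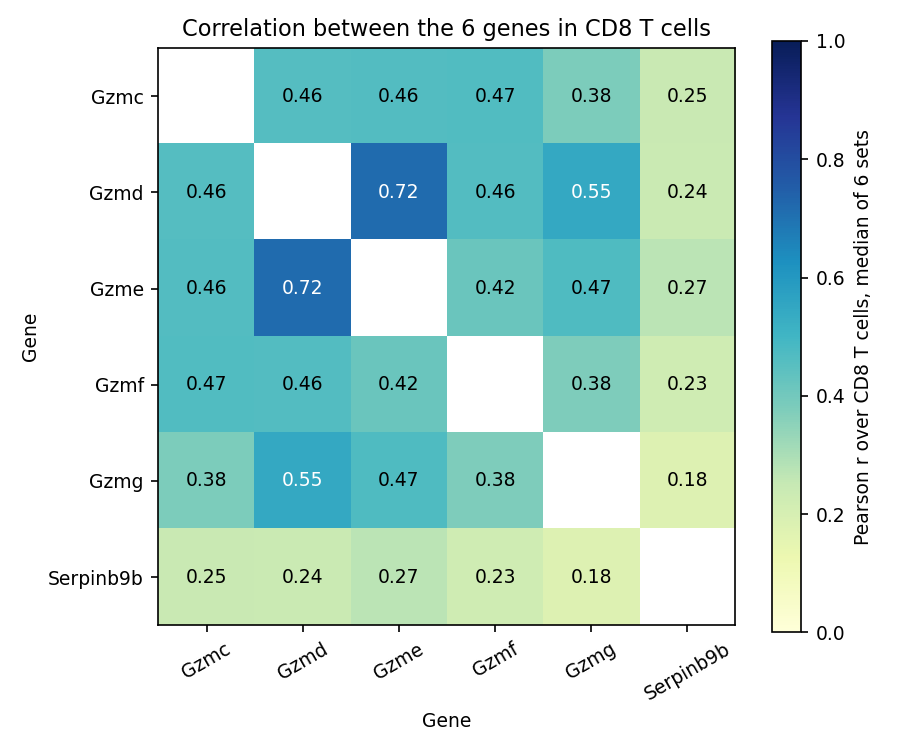
Pearson correlation between each pair of the 6 genes over CD8 T cells on the deposited scale, given as the median of the 6 sets, with darker blue for higher values. Gzmd with Gzme stands highest at 0.72, and the Serpinb9b row lies lowest, at 0.18 to 0.27.

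Serpinb9b was found more often in CD8 T cells with the granzymes than in those without. It was above 0.5 in 37.8%, 43.5%, 36.3%, 37.0%, 41.4% and 43.7% of CD8 T cells with any of the 5 granzymes in sets 1 to 6. In CD8 T cells with none it was above 0.5 in 12.2%, 10.5%, 10.1%, 7.14%, 9.66% and 11.3%, so the ranges of the positive and negative cells did not overlap. On the deposited scale 34.9% of 1034 genes compared were also higher in the positive cells in all 6 sets. The positive cells of set 1 were deeper, and after thinning there Serpinb9b had correlations of only 0.03 (Gzmg) to 0.12 (Gzme) with the 5 granzymes. Conversely, 29.8% to 58.8% of Serpinb9b-positive cells had any granzyme, which leaves many that had Serpinb9b without them. In NK cells Serpinb9b was above 0.5 in 7 of the 51 Gzmc-positive cells over all sets (13.7%), and in 6.90% to 23.5% of NK cells with none of the 5. Its correlation with Gzmc had a median of 0.25 over the sets in CD8 T cells and of -0.06 in NK cells.

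The rest of the CD8 T transcriptome was compared between the 93 CD8 T cells of set 1 with at least 2 granzyme C to G UMIs and the 908 with none. This split was made from the members' own values, and the positive cells were deeper, at a median of 9704 against 4572 UMIs. Values are CPM over summed totals, and a gene had to have at least 20 UMIs to be compared. Of the 1034 genes compared, 2.42% were at least 2-fold higher in the positive cells and 6.87% at least 2-fold lower, and the median log2 ratio over all of them was -0.10.

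Granule genes differed among themselves in set 1 CPM. Gzmb was at 3255 CPM in positive and 771 CPM in negative cells, a ratio of 4.22 (4.04 to 4.41), and Prf1 at 1986 and 615 CPM, a ratio of 3.23 (3.06 to 3.40). On the deposited scale 6 of the 9 granule genes were higher in positive cells in all 6 sets, namely Gzmb, Prf1, Cst7, Nkg7, Srgn and Ctsc, and 34.9% of all genes compared were. Gzmb and Prf1 were the 2 of 9 granule genes past 2-fold (all genes 2.42%), and 0 of 9 were 2-fold lower. Gzma, at 184 and 214 CPM, and Gzmk, at 63.1 and 84.7 CPM, had ratios of 0.860 (0.742 to 0.993) and 0.744 (0.577 to 0.949). Nkg7, a granule membrane protein, was at 1079 and 1097 CPM, and Srgn and Ctsc had ratios of 0.877 and 0.686, so for these 3 the direction depends on the scale. The median log2 ratio of the 9 was -0.19. Without the 5 highest cells the ratios were 2.92 for Gzmb and 2.47 for Prf1.

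Among the serpins, Serpinb9b was at 245 CPM in positive and 67.0 CPM in negative cells, a ratio of 3.65 (3.12 to 4.27). Its relative Serpinb9, the granzyme B inhibitor, was at 297 and 205 CPM, a ratio of 1.45 (1.29 to 1.64), and Serpinb6b at 623 and 387 CPM, a ratio of 1.61 (1.48 to 1.75). Serpinb1a, with 2 and 35 UMIs, had a ratio of 0.248 (0.0289 to 0.965), and Serpina3g one of 0.816 (0.653 to 1.01). Of these 4 other serpins 0 were 2-fold higher and 1 was 2-fold lower.

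Activation genes differed from one another. Il2ra, the high-affinity interleukin-2 receptor chain, was at 145 CPM in positive and 37.2 CPM in negative cells, a ratio of 3.90 (3.16 to 4.80), and was the 1 of 10 activation genes past 2-fold. Its partner Il2rb was at 896 and 882 CPM, a ratio of 1.02 (0.950 to 1.08), but was higher in positive cells in all 6 sets on the deposited scale. Irf8 had a ratio of 1.18 (1.05 to 1.33) and Batf of 0.973 (0.795 to 1.18). The T-box factor Tbx21 had a ratio of 0.765 (0.659 to 0.884), though it was higher in positive cells in 5 of 6 sets on the deposited scale, and Eomes of 0.771 (0.544 to 1.07). The early T cell receptor response genes Nr4a2 and Nr4a3 had ratios of 0.663 and 0.622, and Egr2, with 3 UMIs in positive cells, one of 0.155 (0.0313 to 0.469), the 1 of 10 that was 2-fold lower. Egr1 had a ratio of 0.691 (0.584 to 0.814), though it was higher in 5 of 6 sets on the deposited scale. The median log2 ratio of the 10 was -0.38. On the deposited scale 3 of the 10 (Il2ra, Il2rb and Irf8) were higher in positive cells in all 6 sets and 1 (Egr2) was lower. Of all genes compared 34.9% were higher and 5.32% lower in all 6. For Il2rb, Tbx21 and Egr1 the reading depends on the scale.

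Checkpoint receptors split in direction. Havcr2, which encodes TIM-3, was at 304 CPM in positive and 188 CPM in negative cells, a ratio of 1.61 (1.43 to 1.82), and was higher in all 6 sets. Tox, a factor of chronically stimulated T cells, was at 187 and 349 CPM, a ratio of 0.535 (0.464 to 0.614), and was lower in all 6 sets on the deposited scale. Pdcd1, which encodes PD-1, and Ctla4 had ratios of 0.775 (0.718 to 0.836) and 0.798 (0.732 to 0.869) in set 1 CPM, yet were higher in positive cells in 5 of 6 sets on the deposited scale, so their direction depends on the scale. None of the 5 genes of this list passed 2-fold either way.

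Chemokine and cytokine genes moved in both directions. Ccl5, a chemokine of effector and memory T cells, was at 464 CPM in positive and 1531 CPM in negative cells, a ratio of 0.303 (0.278 to 0.330), and was lower in all 6 sets. Xcl1, which attracts dendritic cells, was at 199 and 317 CPM, a ratio of 0.628 (0.547 to 0.719), and was lower in all 6. Tnf and Lta had ratios of 0.422 (0.240 to 0.695) and 0.362 (0.0947 to 0.988), the latter from 4 UMIs in positive cells. Ccl9 was higher, at 55.7 and 13.4 CPM, a ratio of 4.16 (2.94 to 5.88), while Ifng, at 818 and 763 CPM, had 1.07 (1.00 to 1.15) and Ccl4 had 0.995 (0.933 to 1.06). In this list 1 of 11 genes was at least 2-fold higher (all genes 2.42%) and 3 of 11 at least 2-fold lower (all genes 6.87%).

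Cell cycle genes lay slightly higher. Of 12, 10 had a ratio above 1, as had 39.7% of all genes compared, and 0 passed 2-fold, with Rrm2 at 1.52 (1.31 to 1.76), Cdk1 at 1.40 (1.23 to 1.60) and Mki67 at 0.985 (0.878 to 1.10), and a median log2 ratio of 0.27. On the deposited scale all 12 were higher in positive cells in all 6 sets, beside the 34.9% of all genes compared, of which 5.32% were lower in all 6. Tissue residence genes lay lower in set 1 CPM, with 0 of 6 above a ratio of 1 and a median log2 ratio of -0.65. Among them Cxcr6 was at 0.643 (0.589 to 0.701). On the deposited scale 1 of the 6 (Itga1) was higher and 2 (Itgae and Xcl1) were lower in all 6 sets. Rgs1 was higher in 5 sets, Cxcr6 in 3 and Cd69 in 2, so for Itga1 and Rgs1 the direction depends on the scale. The 12 hepatoma markers summed to 1149 CPM in the positive and 1306 CPM in the negative cells. On the deposited scale 4 of the 11 hepatoma markers compared (Afp, Apoa2, Krt8 and Fabp1) were higher in positive cells in all 6 sets and 0 were lower in all 6. Of all genes compared 34.9% were higher and 5.32% lower in all 6, so nothing is read from that count. The part of tumour RNA in these comparisons was not tested. The 9 NK markers summed to 471 and 632 CPM, and the 11 myeloid markers to 117 and 139 CPM.

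**Figure D5:**
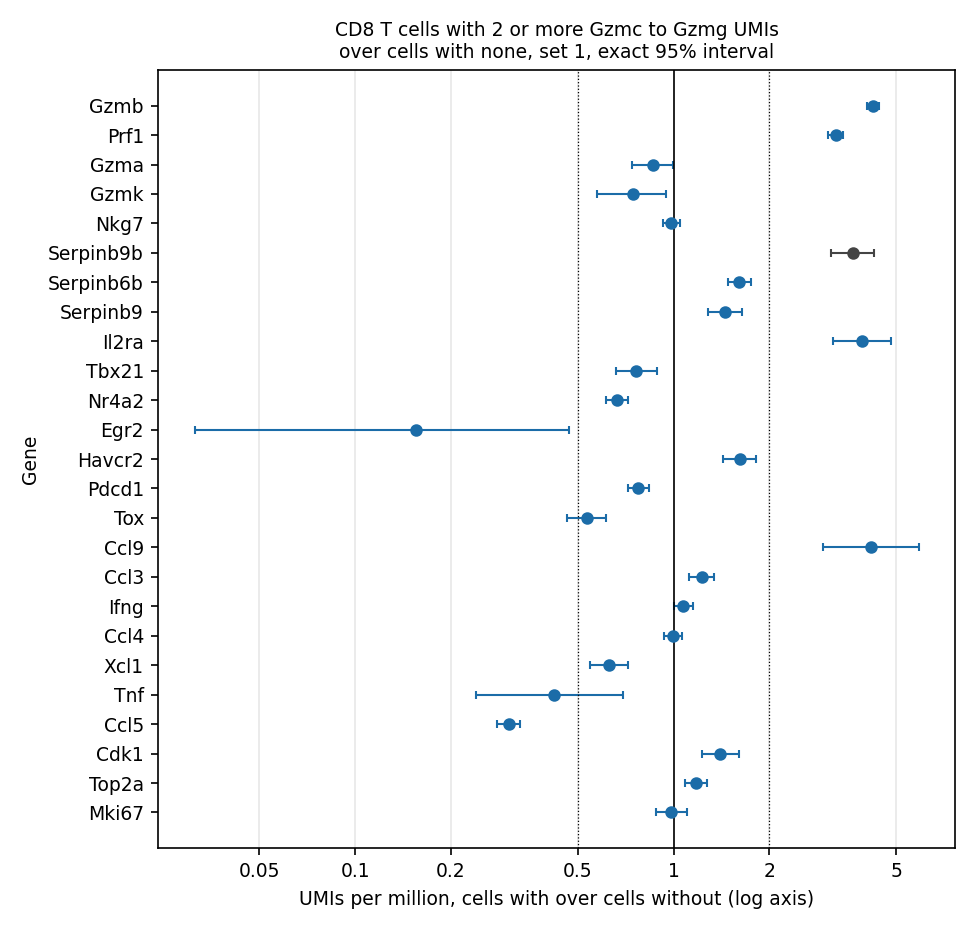
Ratio of CPM in the 93 CD8 T cells of set 1 with at least 2 Gzmc to Gzmg UMIs over the 908 with none (horizontal log axis), with points for 25 genes and bars for exact 95% intervals of counting error. Gzmb, Serpinb9b, Il2ra, Ccl9 and Prf1 lie beyond the 2-fold line on the right, and Ccl5, Tnf and Egr2 beyond it on the left.

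Genes whose values most resembled the summed granzymes over thinned CD8 T cells of set 1, among 369 with a UMI in at least 5% of cells, were Gzmb (r = 0.27), Spp1 (0.23), Prf1 (0.21), AA467197 (0.19), Serpinb6b (0.16), Mt1 (0.15), Serpinb9b (0.13), S100a4 (0.11), Cdkn1a (0.11) and Ly6c2 (0.10). On the deposited scale the correlation with Gzmb was 0.26 to 0.44 over the 6 sets and that with Prf1 0.24 to 0.39. The lowest were mt-Co1 (-0.09), Ccl5 (-0.08) and mt-Nd1 (-0.08), of which Ccl5 was below 0 in all 6 sets (-0.16 to -0.08). For Serpinb9b the 5 nearest other genes were Tbx21 (0.11), Serpinb6b (0.11), Ifng (0.09), Gzmb (0.09) and Prf1 (0.09). All of these are weak in sparse counts and are given as a description.

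Among the 34 NK cells of set 1, the genes nearest to the summed granzymes, here Gzmc alone, were the proliferation gene Top2a (0.72), Tff2 (0.71), Stmn1 (0.61), Pclaf (0.57), Lig1 (0.56), Uhrf1 (0.56), Hspa1a (0.55), Gm42674 (0.55), Slc20a1 (0.55) and Bcl2a1d (0.54). Only 4 of the cells held Gzmc, so these values rest on them. Over the sets, the correlation was above 0 in all 6 for Top2a (0.09 to 0.59), Stmn1, Pclaf, Lig1, Uhrf1, Gm42674 and Bcl2a1d, and ran from -0.23 to 0.25 for Tff2. Gzma was the lowest at -0.42, and its correlation was below 0 in every set, both with the summed granzymes (-0.61 to -0.26), which in other sets include Gzmd, Gzme and Gzmf, and with Gzmc alone (-0.61 to -0.30). H2-K1 (-0.38) and Nkg7 (-0.35) were the next lowest. The 5 nearest to Serpinb9b were Tagap (0.99), Sulf2 (0.60), Atp1b1 (0.53), Cd72 (0.53) and Oxr1 (0.53), from 2 cells with a Serpinb9b UMI after thinning, and Tagap ran from -0.16 to 0.30 over the sets.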

How the data were processed

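Droplet 3′ single-cell RNA of dissociated tumours was deposited as a pooled table of 2000 genes and 53528 cells. Per the labels, reads were aligned with STAR (2.7.2b per the submitters' processing notes, which name GRCh38 and mm10) and UMIs counted with PISA. The deposited values are natural log values, in set 1 of 1 plus UMIs per 10000, and the authors' later steps in sets 2 to 6 are not given in the sources used here. UMI totals of set 1 (1001 to 261833) were recovered from the values, all of which came out whole within 0.01, and the recovery was tested on simulated data. The table's genes hold 15.0% of them.

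A marker was present above 0.5. Immune gates needed a summed hepatoma marker value below 9, T gates 1 T cell marker, the NK gate 2 NK markers with Cd3d, Cd3g, Trac, Cd8a, Cd8b1, Cd4 and Foxp3 absent, and the myeloid gate 3 markers. Myeloid cells also had no T cell or CD8 marker, fewer than 2 NK markers and no Foxp3. Hepatoma cells had a summed hepatoma marker value of at least 9, at most 1 myeloid marker, and no T cell, CD8, NK, Cd4 or Foxp3 marker. Gates were set after values were seen. Cell names are running numbers, so barcodes shared between sets could not be counted. Scrublet (scanpy 1.11.5) called 68 doublets (0.726%) in set 1.

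Intervals are 95%: exact Poisson, Clopper-Pearson and conditional Poisson for ratios (scipy 1.17.1), for counting error only. Pseudocount was 1 CPM in log2 ratios. Named genes are the 6 members, the list members, and the 10 highest and 3 lowest correlates (5 for Serpinb9b). The members and lists were chosen with earlier results of these data known. Alternatives changed the marker cut, T marker number, doublets, tumour RNA, summing, thinning, pseudocount and correlation.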

Additional observations from a re-analysis of the deposited data

Results flagged for a closer look

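Across the 6 sets, 8 of 36 pairs of gene and class had a set that stood apart from the other 5 by a larger part of the whole range than Dixon's 95% limit allows. Chance passes that limit in about 1 in 20 groups only for normal values of equal spread. Shares near 0 from sets of unequal size are not such values, so the 8 of 36 cannot be set against that rate. For Gzmd and Gzmg in regulatory T cells the other 5 sets are all at 0, and any positive cell passes the limit. Set 6 stood high in 7 of them in the share of cells above 0.5. In CD8 T cells these were Gzmd at 12.5% and Gzme at 13.2%. In hepatoma cells they were Gzmd at 0.689% and Gzme at 0.640%. In CD4 T cells Gzme stood at 8.47% and Serpinb9b at 16.1%, and in regulatory T cells Gzmd stood at 5.0%, from 3 of 60 cells. Set 4 stood apart for Gzmg in regulatory T cells at 1.14%, which is 1 of 88 cells. The pairs share cells and depth and are not independent, and the cause was not tested.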

How the results depend on the processing

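The summed Gzmc to Gzmg level in CD8 T cells of set 1, 348 CPM, was 266 and 332 CPM with a marker cut of 0.25 and 1, 196 CPM as a mean over cells, 198 CPM after thinning, and 268 and 155 CPM without the 1 and the 5 highest cells of each gate, the last 2 tried after seeing the data. The thinned share of CD8 T cells with a granzyme UMI, 5.25%, was 8.67% at 2000 UMIs, 13.4% with no thinning and 2.67% for at least 2 UMIs. For the log2 ratio of the summed level, CD8 T over NK cells, -2.58, values were -6.01 with a marker cut of 1, -1.52 in cells with less tumour RNA, -5.83 with Trac allowed, -0.86 without the highest cell and 7.29, in the other direction, without the 5 highest, a setting that removes all 4 NK cells with a granzyme UMI. The same ratio for Serpinb9b, -0.34 (-1.10 to 0.53), was 1.65 in cells with less tumour RNA. The median pair correlation, 0.42, was 0.34 with a marker cut of 0.25, 0.32 with 2 T cell markers, 0.54 with less tumour RNA, 0.53 unthinned, 0.35 by Spearman, 0.31 without the highest cell and 0.22 without the 5 highest. The cause was not tested for the other settings. No paired analysis was possible because the cells carry no replicate number of the groups. For the 34 NK and 39 regulatory T cells the floor of 3 UMIs is 27.1 and 12.5 CPM, which covers counting error only and is no upper limit.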
